A study of Mus musculus with 2 samples.

Results

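Tnfrsf4, Tnfrsf18, Icos, Lag3, Cd80 and Cd86 encode costimulatory and checkpoint molecules, the surface proteins that set how strongly a T cell responds once its antigen receptor is engaged. They were followed in splenic CD5+ gamma delta T cells of 2 kinds of mice, wildtype and LAT3YF. The 6 genes were chosen by their platform annotation, with their log ratios on these arrays already known, and each was measured by 1 probe that lists no other gene. They are 6 of the 4331 genes named by single-gene probes. Their ratios are therefore given as a description, with no test.

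The series holds 2 arrays. Each compared the same 2 populations, wildtype and LAT3YF, in separate channels, and the dyes were reversed between the arrays, which the labels call + polarity and - polarity (here the + array and the - array). LAT is the adaptor that carries the signal of the T cell receptor to its enzymes, and 3YF denotes replacement of tyrosines in it by phenylalanine. Cells of both populations were taken from spleen with anti-CD5 beads and a cell sorter. The labels give no strain, age, number of animals or pooling. The labels name no separate extracts, so the arrays count as 1 replicate of the comparison, and every SD below is over the 2 arrays and covers technical error only. The deposited values were read as log10 ratios, a base that the labels do not state, and every fold below rests on that reading. The sign of the - array was turned before averaging. The labels do not say which channel is the numerator, so positive and negative stand for 1 population each without saying which is LAT3YF.

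In T cell biology these molecules form 3 groups. Tnfrsf4 (OX40) and Tnfrsf18 (GITR) are receptors of the tumour necrosis factor (TNF) receptor superfamily that appear or increase on T cells after activation, are abundant on regulatory T cells, and signal through TRAF adaptors to NF-kB. Icos is a costimulatory receptor of the CD28 family that recruits phosphoinositide 3-kinase, and Lag3 is an inhibitory receptor related to CD4 that binds MHC class II. Cd80 and Cd86 are the B7 ligands of CD28 and CTLA-4, carried mainly by antigen-presenting cells such as dendritic cells, macrophages and B cells, and also found on some activated T cells.

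Among the 6 members, the costimulatory receptor genes lay on the opposite side of the comparison to Lag3 and Cd86. This split did not extend to the related genes given below, where genes of inhibitory receptors lay on both sides. Tnfrsf4, Tnfrsf18, Icos and Cd80 were positive on both arrays, and Lag3 and Cd86 were negative on both. A gene was called when its mean ratio was at least 2-fold (0.301 in log10) and its sign agreed between the arrays, which is a rule of size and not a test. Of the 6 genes, 3 were called positive (Tnfrsf4, Tnfrsf18 and Icos), 2 negative (Lag3 and Cd86), and Cd80 was not called. Over all named genes the same rule called 379 of 4331 (8.75%), 161 positive (3.72%) and 218 negative (5.03%). Nothing is read from the members' count against these shares, because the members were chosen with their ratios known.

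The receptor genes Tnfrsf4 and Tnfrsf18 are shown first with their upstream sequences, because they are chromosomal neighbours that lay on the same side. In the RefSeq gene table (GRCm38.p6) both are on chromosome 4, with 2 listed genes between them, Gm16008 and Gm25982, neither of them measured by a named probe. The windows below hold the 250 bases before a RefSeq transcript start of each gene, on the + strand, from chr4:156013445-156013694 for Tnfrsf4 and chr4:156026072-156026321 for Tnfrsf18. Capitals mark every match to the NFAT core GGAAA or its reverse complement.

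Tnfrsf4: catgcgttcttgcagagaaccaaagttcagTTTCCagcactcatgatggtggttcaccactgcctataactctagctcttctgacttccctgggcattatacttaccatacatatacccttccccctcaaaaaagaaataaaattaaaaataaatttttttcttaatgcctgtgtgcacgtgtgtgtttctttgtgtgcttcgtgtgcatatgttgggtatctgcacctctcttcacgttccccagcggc

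Tnfrsf18: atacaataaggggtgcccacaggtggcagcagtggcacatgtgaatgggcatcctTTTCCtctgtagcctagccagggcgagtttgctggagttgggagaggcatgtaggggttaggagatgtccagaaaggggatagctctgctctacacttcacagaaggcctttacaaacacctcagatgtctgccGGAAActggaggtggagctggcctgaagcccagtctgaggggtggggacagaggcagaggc

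NFAT, AP-1, GATA and NF-kB factors act in activated T cells, and their motifs were searched on both strands. The Tnfrsf4 window held 1 match to GGAAA, 216 to 220 bases before the start. The Tnfrsf18 window held 2, at 191 to 195 and at 57 to 61 bases. Of all 32851 RefSeq windows of this length, 55.6% hold that core, so its presence is common. Neither window held the AP-1 motif TGANTCA (6.75% of all windows), the GATA core GATAA (22.6%) or the NF-kB consensus (3.90%), some forms of which contain GGAAA. Of the other members only Cd80 had a window in the table, and it held 1 AP-1 match, 36 to 42 bases before its start. A match is a description of the letters, and a window without one says nothing about the factor.

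Tnfrsf4 (gene ID 22163) had the largest ratio of the 6 genes. Its log10 ratio was 0.618 on the + array and 0.683 on the - array, a mean of 0.650 ± 0.046 (SD over 2 arrays), or 4.47-fold. It ranked at place 23 from the highest of the 4331 genes. At a stricter rule of 3-fold, which 144 genes (3.32%) passed, Tnfrsf4 was the only member called.

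Tnfrsf18 (gene ID 21936) was 0.427 on the + array and 0.422 on the - array. Its mean was 0.424 ± 0.0033, or 2.66-fold, the smallest spread of the 6, and it stood at place 70. Tnfrsf4 exceeded it by 0.192 and 0.261 in log10 on the + and - arrays. The neighbours outside the pair had small ratios. Sdf4, next to Tnfrsf4, was at 0.0957 ± 0.0033, and Perm1, the nearest measured gene beyond Tnfrsf18, was at -0.0872 ± 0.019. Neither was called.

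Icos (gene ID 54167) was positive on both arrays with a smaller ratio. It was 0.353 on the + array and 0.328 on the - array, with a mean of 0.340 ± 0.017 (2.19-fold). Both arrays were past 2-fold. The nearest measured gene on chromosome 1 is Ctla4, which encodes the inhibitory relative of CD28. Ctla4 was 0.208 and 0.206 on the + and - arrays, at 0.207 ± 0.0016 (1.61-fold), and was not called. Cd28, the founding receptor of the family, was at 0.0200 ± 0.0019 (1.05-fold). Within each array the order was Icos, Ctla4, Cd28. Of these 3 measured genes of the CD28 family, only Icos was called, and the median was 0.207. In log10, Icos exceeded Cd28 by 0.331 on the + array and 0.309 on the - array.

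Lag3 (gene ID 16768) lay on the other side, close to the threshold. It was -0.297 on the + array, just under 2-fold, and -0.340 on the - array, just over it. The mean was -0.318 ± 0.030 (2.08-fold). With the + array alone it was 1.98-fold and no longer called. When each array had to pass 2-fold on its own, a rule that 272 genes (6.28%) met, the other 4 called members still passed and Lag3 did not. Cd4, the adjacent gene on chromosome 6, was at 0.0177 ± 0.047, with opposite signs on the arrays.

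The B7 genes diverged. Cd80 (gene ID 12519) was 0.250 on the + array and 0.163 on the - array, a mean of 0.206 ± 0.062 (1.61-fold) and the widest spread of the 6. It was below 2-fold on both arrays and passed only the looser rule of 1.5-fold, under which all 6 members and 774 of all genes (17.9%) were called. Cd86 (gene ID 12524) was -0.368 on the + array and -0.415 on the - array, with a mean of -0.392 ± 0.033 (2.46-fold). Cd80 exceeded Cd86 by 0.618 in log10 on the + array and 0.578 on the - array, which is 0.598 ± 0.028, or a 3.96-fold difference between their ratios. These are ratios between populations, and they do not compare the amounts of the Cd80 and Cd86 transcripts.

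From highest to lowest the order of the mean ratios was Tnfrsf4, Tnfrsf18, Icos, Cd80, Lag3 and Cd86. The ranges over the arrays did not overlap between any neighbours in this order. The closest neighbours were Lag3 and Cd86, 0.0713 and 0.0755 apart on the + and - arrays, and Tnfrsf18 and Icos, 0.0740 and 0.0941 apart. The median SD over all genes was 0.0579 in log10, and 5 of the 6 members were below it, Cd80 being the exception. With 1 replicate, these separations describe technical spread between the arrays only.

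**Figure D1:**
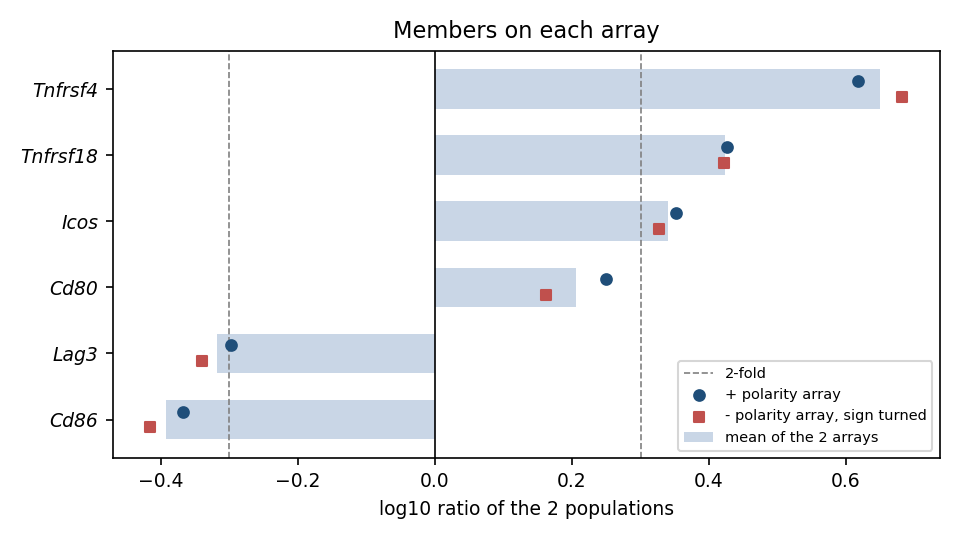
The log10 ratio of the 2 populations (horizontal axis) for each of the 6 genes, with bars for the mean, circles for the + polarity array and squares for the - polarity array after its sign was turned. Tnfrsf4, Tnfrsf18 and Icos lie beyond the dashed 2-fold line on both arrays, Cd80 lies inside it on both, Lag3 straddles it at -0.297 and -0.340, and Cd86 lies beyond it.

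**Figure D2:**
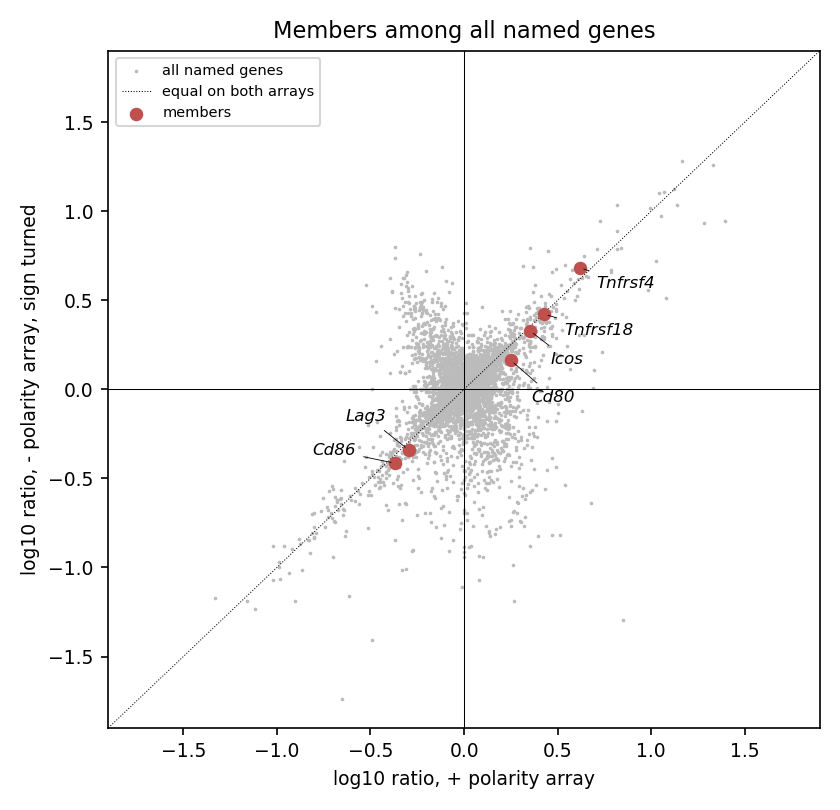
The log10 ratio on the + polarity array (horizontal axis) against that on the - polarity array after turning (vertical axis) for 4331 genes in grey and the 6 members in red. All 6 members lie close to the dotted line of equal values. Over all genes, 59.6% had matching signs on the arrays.

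Among TNF receptor superfamily genes, Tnfrsf4 and Tnfrsf18 were called, and the others measured had smaller ratios. Of 8 measured costimulatory receptors of this family, those 2 were called positive and 0 negative, and the median was -0.0260. The median over all named genes was 0.0023. Cd27, which supports T cell survival, was at -0.207 ± 0.029, and Cd40, the receptor through which T cells activate antigen-presenting cells, was at -0.117 ± 0.00099. Tnfrsf25 (DR3) was at 0.0419 ± 0.034 and Tnfrsf1b, the second TNF receptor, at 0.0016 ± 0.062. Tnfrsf8 (CD30, -0.0536 ± 0.17) and Tnfrsf9 (4-1BB, -0.0575 ± 0.33) had opposite signs on the arrays, and their means were smaller than their spread.

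Several TNF family ligand genes had positive ratios. Of 8 measured ligands, 6 had means above 0, beside 51.2% of all named genes. The list's median was 0.197, and 1 gene was called. That gene was Tnfsf9, the ligand of 4-1BB, which was 0.404 on the + array and 0.400 on the - array, a mean of 0.402 ± 0.0027 (2.52-fold). Tnfsf4, the ligand of OX40, was 0.373 on the + array and 0.0640 on the - array, and its mean of 0.218 ± 0.22 was about the size of its spread. With the + array alone Tnfsf4 was past 2-fold too, and with the - array alone the list's median was 0.121. Cd40lg (0.203 ± 0.036), Tnfsf8 (0.201 ± 0.013) and Tnfsf14 (0.193 ± 0.10) had means near 1.6-fold and were not called. Cd70 (0.0302 ± 0.17), Lta (-0.0148 ± 0.077) and Tnf (-0.0474 ± 0.033) were close to 0, and Cd70 and Lta had opposite signs on the arrays. Tnfsf18, the ligand of GITR, was not measured by a named probe.

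Genes of the other checkpoint receptors lay on both sides. Of 6 measured inhibitory receptor genes outside the CD28 family, 2 were called positive and 2 negative (Lag3 and Pilra), and the median was 0.181. Klrg1, a receptor for cadherins on effector lymphocytes, was at 1.09 ± 0.025 (12.2-fold), and Cd5, through which the cells were isolated, was at 0.614 ± 0.0077 (4.11-fold). Pilra, an inhibitory receptor mainly of myeloid cells, was at -0.430 ± 0.034 (2.69-fold), on the side of Lag3. Cd200r1, the receptor of CD200, was at 0.301 ± 0.063, a mean just short of 2-fold, and Cd244a (2B4) was at 0.0607 ± 0.12. Pdcd1, Btla, Havcr2 and Tigit had no named probe. Of 5 measured ligand genes of inhibitory receptors, 0 were called, and the median was -0.0726. They were Lgals3 (0.200 ± 0.084), which encodes a galectin reported to bind LAG-3, Cd200 (0.0966 ± 0.20), Cd48 (-0.0726 ± 0.065), Nectin2 (-0.114 ± 0.20) and Ceacam1 (-0.239 ± 0.21). The third measured B7 gene, Cd274, which encodes PD-L1, was at 0.0142 ± 0.10, which is also the median of the 3. Of these, Cd86 alone was called.

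With the probes of a gene averaged, none of the measured genes of the signalling routes below these receptors was called on the mean of both arrays. Of 19 measured genes of TRAF adaptors and NF-kB, 0 were called, the median was -0.0033, and the means ranged from -0.244 (Rel, 1.75-fold) to 0.148. Of 17 measured genes of the CD28 and ICOS route, 0 were called, the median was 0.0051, and the means ranged from -0.0977 to 0.283 (Pik3cg, 1.92-fold). On the - array alone, 1 gene of the first list was called positive and 1 negative, and 3 of the second positive and 1 negative. On the + array alone, 1 of the second was called positive. Taking the probe with the largest mean for each gene called 1 of the first negative and 1 of the second positive. Transcript ratios do not measure the activity of these proteins. The 9 genes measured in the regulatory T cell list besides Tnfrsf4 and Tnfrsf18 held 2 called positive, the cytokine genes Ebi3 (0.378 ± 0.040, 2.39-fold) and Il10 (0.311 ± 0.055, 2.04-fold), and Il10, at 0.272 on the + array, was not called with that array alone. The median of the 9 was 0.0642. The 15 genes measured in the activated T cell list besides Tnfrsf4 and Icos held 2 called positive, the transcription factor genes Batf (0.624 ± 0.064, 4.20-fold) and Irf4 (0.443 ± 0.059, 2.77-fold), and their median was -0.0112. Over all lists together, 83 related genes other than the members were measured, with 7 called positive, 1 negative and a median of 0.0058. The same rule called 8.75% of all named genes, 3.72% positive and 5.03% negative. Nothing is read from the counts of the lists against these shares, because the lists were chosen with earlier results known.

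**Figure D3:**
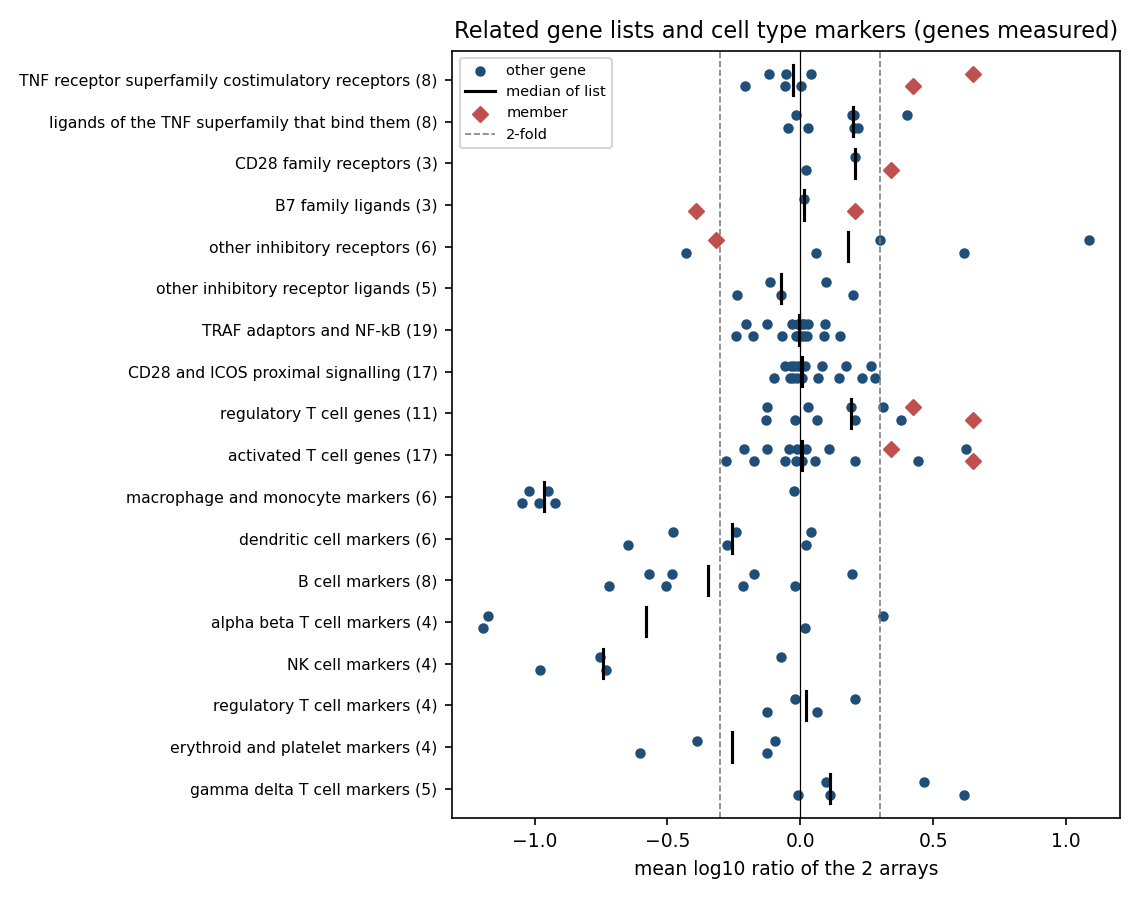
The mean log10 ratio of the 2 arrays (horizontal axis) for each measured gene of the related lists and of the cell type marker lists, with members as red diamonds, other genes as blue points, list medians as black bars and 2-fold as dashed lines. Of 6 macrophage and monocyte markers, 5 lie far on the negative side (list median -0.966) and Itgam lies at -0.0221. The genes of TRAF adaptors and NF-kB lie between -0.244 and 0.148.

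Markers of other spleen cell types were also unequal between the populations, and several lay on the side of Cd86 and Lag3. Of 6 measured macrophage and monocyte markers, 5 were called negative and 0 positive (median -0.966). Itgam, the remaining one, was at -0.0221 ± 0.012 (1.05-fold) and was not called. Of 8 B cell markers, 4 were called negative and 0 positive (median -0.349), and of 6 dendritic cell markers 2 were called negative and 0 positive (median -0.259). The B cell list was mixed, from Ighm (-0.719 ± 0.031) to Pax5 (-0.0184 ± 0.033) and Cd22 (0.193 ± 0.024). Cd22 was positive on both arrays and was not called. The dendritic cell list was mixed too, from Itgax, which encodes CD11c, at -0.649 ± 0.0097 to Zbtb46 (0.0225 ± 0.024) and Xcr1 (0.0402 ± 0.11) with means above 0. Macrophages, dendritic cells and B cells are known to carry Cd86, and the part of these cells in its ratio was not tested. Cd80, which the same cells can carry, had a positive mean that was not called. Of 4 NK cell markers, 3 were called negative (Klrd1, Klrb1c and Klra1) and 0 positive (median -0.743). Ncr1, the remaining marker, was at -0.0723 ± 0.031 (1.18-fold) and was not called. NK cells are known to express Lag3. Their part in the Lag3 ratio was not tested. Of 4 erythroid and platelet markers, 2 were called negative and 0 positive (median -0.256, and -0.464 with the - array alone). In sorted bulk populations, fewer cells of a type and less RNA per cell cannot be told apart, and ratios give no level, so markers at or near background could not be identified.

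T cell markers did not all follow the costimulatory receptors. The called genes of the regulatory T cell list above, Tnfrsf4, Tnfrsf18, Ebi3 and Il10, are not among the regulatory T cell markers. Of 4 measured markers, all of which are also in that list, 0 were called. They were Ctla4, given above, Ikzf4 (0.0642 ± 0.040), Ikzf2, which encodes Helios (-0.0207 ± 0.018), and Il2ra (-0.127 ± 0.35), which had opposite signs on the arrays. Foxp3 had no named probe. The part of regulatory T cells in the Tnfrsf4 and Tnfrsf18 ratios was not tested. Of 4 alpha beta T cell markers, 1 was called positive (Zbtb7b) and 2 negative (Cd8a and Cd8b1), the median being -0.579. With the + array alone the median was -0.301, and Zbtb7b, at 0.258 on that array, was no longer called. Cd8a was at -1.20 ± 0.77 (-0.654 on the + array and -1.74 on the - array). Cd8b1 was at -1.18 ± 0.082, and both CD8 genes lay on the side of Lag3. The part of cells carrying CD8 in the Lag3 ratio was not tested. Of 5 measured genes in the gamma delta T cell list, 2 were called positive (Cd5 and Sox13) and 0 negative, with a median of 0.110. The CD3 chain genes in that list were not called. The CD3 chain genes and Cd5 are shared with other T cells, so the list does not single out gamma delta T cells. No named probe covered the gamma and delta receptor constant regions in the list. Ratios between the populations give no level in either, so the labelled cell type could not be checked here.

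Other genes had nearly the same pair of array values as each member. Likeness was taken as the distance between pairs of log10 ratios, over the 2 arrays only, and it says nothing of shared function. The nearest to Tnfrsf4 were Dclk1 (distance 0.021), Batf (0.042) and Ryk (0.058). The nearest to Tnfrsf18 were Top2a (0.012), Morrbid (0.013) and Dok2 (0.020), and those to Icos were Capn12 (0.019), Dynll2 (0.021) and Socs1 (0.021). Lag3 was nearest to Cd164 (0.0084), Lpin1 (0.012) and Il18bp (0.014), Cd86 to C2cd2 (0.0039), Aldh2 (0.022) and Pgap1 (0.024), and Cd80 to Ldhb (0.0090), Nme3 (0.013) and Hey1 (0.015).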

How the data were processed

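For every probe the authors deposited the log ratio of the 2 channels of each array, read here as log10. The base, the scanner, the background correction and the normalization are not stated. Intensities were not analysed here. The deposited medians were -0.0028 (+ polarity) and 0.0010 (- polarity), and the columns correlated at r = -0.301 over 8014 probes before the sign was turned. Of these probes 4654 list 1 gene, 73 several and 3287 none in the platform annotation. Probes of a gene were averaged, which gave 4331 genes. All 6 members were found by gene ID in the RefSeq table.

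No test was made, because the dye-reversed arrays count as 1 replicate. The members and lists were chosen with earlier results of these data known. Genes named are the members, all genes of lists with at most 8 measured, up to 4 called genes per direction in longer lists, the 3 genes nearest each member and the nearest measured neighbours on the chromosome. For marker lists, counts and medians are given. Some genes were named after their values were seen. They are Itgam, Itgax, Zbtb46, Xcr1, Ighm, Pax5, Cd22, Cd8a, Cd8b1, Zbtb7b, Sox13, Pik3cg, Rel and the genes of the NK cell and regulatory T cell markers. Alternatives were single arrays, other log bases, centring, scaling, other thresholds and other summaries of probes. Python 3.11.15 and pandas 2.3.3 were used.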

Additional observations from a re-analysis of the deposited data

How the results depend on the processing

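The base of the logarithm matters most. Read as log2, the mean log10 ratios became 0.196 (Tnfrsf4, 1.57-fold), 0.128 (Tnfrsf18), 0.102 (Icos), 0.0621 (Cd80), -0.0958 (Lag3) and -0.118 (Cd86). Read as natural logs, they became 0.282 (Tnfrsf4, 1.92-fold), 0.184, 0.148, 0.0895, -0.138 and -0.170 in the same order. Under either base 0 members were called positive and 0 negative, with 10 positive and 7 negative calls over all genes as log2, and 22 and 40 as natural logs. Of the related genes, 1 was then called positive and 0 negative. No member changed sign under the alternatives run. This was fixed beforehand for single arrays, other bases and thresholds, because each member had the same sign on both arrays. Leaving out an array left 3 members positive, 1 to 2 negative (1 without the - polarity array, the lost gene being Lag3), 228 to 306 positive and 224 to 436 negative calls over all genes, and 9 to 11 positive and 2 to 5 negative related genes. At 1.5-fold, 365 genes were positive and 409 negative, with 17 and 8 of the related genes. At 3-fold, 48 were positive and 96 negative, with 1 and 0 of the members and 3 and 0 of the related genes. Requiring 2-fold on each array left 1 member negative. Scaling the arrays moved Tnfrsf18 to 0.432 and changed no member's call. Taking the probe with the largest mean gave 3 negative related genes. Each member has 1 probe and none shares a probe with another gene, so the choice of probes could not change a member and probes listing several genes were not run. The calls had 42.5% positive in the reported setting and 33.3% (3-fold) to 58.8% (read as log2) over the alternatives, with 50.4% for the + polarity array alone and 44.6% after scaling. Depth in the sense of signal over background is unknown here.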

Other observations

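The chromosomal neighbours of the members were also read, as values that enter no comparison. Of 10 nearest measured neighbours that are not members themselves, 0 were called. Gapdh, the glycolytic enzyme gene on the far side of Lag3, was at 0.235 ± 0.030 (1.72-fold), on the opposite side to Lag3. Nr1i2 (0.176 ± 0.27) and Arhgap31 (-0.203 ± 0.46), on either side of Cd80, had opposite signs on the arrays and means below their spread. Casr (-0.0213 ± 0.014) and Hcls1 (-0.0156 ± 0.070), on either side of Cd86, were near 0, as was Eef1b2 (-0.0733 ± 0.068) beyond Icos.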
